A study of Mus musculus with 6 samples.

Results

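The WT DAXX list of this series holds 570 peaks, and 531 of them overlapped no peak of the 3 other factor lists by 1 bp or more. These 531 regions, DAXX peaks found only in wild-type cells, were chosen by the called positions of the 4 lists (93.2% of the WT DAXX list, a share that the choice itself fixes, so it is no result). They are 531 of the 7165 peaks in all 6 lists of the series. Chromatin immunoprecipitation and sequencing had been run with antibodies to ATRX (SC-15408), DAXX (SC-7152) and rabbit IgG in 2 lines of mouse embryonic stem cells. The WT line was J1, an established embryonic stem cell line, and the TKO line carries homozygous knockouts of its 3 DNA methyltransferases. Both lines grew in embryonic stem cell medium with 2i, a pair of inhibitors of MEK (PD0325901, 1 µM) and of GSK3b (CHIR99021, 3 µM). Each combination of line and antibody is 1 library, so values carry no error between replicates and groups were compared without a test. The labels do not say whether the TKO line is 1 clone or was derived from J1.

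DAXX is a histone chaperone that works with the chromatin remodeller ATRX to place the histone variant H3.3 into chromatin, above all at telomeres, pericentromeric satellites and other repeats. Replication-dependent histone genes, which supply histones during DNA synthesis, lie close together in a few clusters of the mouse genome. Genes for tRNAs, which RNA polymerase III transcribes, also lie in clusters, and some of these stand beside the histone genes. No sequence or gene annotation of the peaks' build, mm9, was used here, so regions are given by position and no gene was assigned to any of them.

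"Found only in WT cells" means absent from a list, not shown to be unbound. The lowest score of the WT DAXX list was 50.02, while the other 3 factor lists stopped between 70 and 70.01. The score is the authors' own value per peak. For the factor lists its scale is not named. It was read as the peak caller's p-value on a negative log10 scale, times 10, the scale named in the headers of the IgG lists. Of the 531 members 248 (46.7%) scored under 70 and thus below every peak of the other 3 factor lists. WT ATRX and TKO DAXX, as labelled, share 750 peaks identical to the base, and which label fits them cannot be told from the lists. With the TKO DAXX list left out of the choice 532 regions would have been members, without TKO ATRX 537 and without WT ATRX 552. The 532 does not settle the doubt about the labels, because WT ATRX, which holds the shared peaks too, stayed in the choice.

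Of the 39 WT DAXX peaks left out, 21 overlapped WT ATRX alone, 6 TKO ATRX alone and 1 TKO DAXX alone. A further 6 overlapped all 3 lists, 3 overlapped WT ATRX and TKO DAXX, and 2 overlapped both ATRX lists. The least overlap among them was 167 bp. It was held by 3 peaks of chromosome 14, chr14:5659246-5659430, chr14:5945292-5945476 and chr14:6748843-6749027, which have the same width (185 bp) and the same score (61.36). On the other side of the limit, the member chr9:123834165-123834488 (score 84.07) ended or began 24 bp from a TKO ATRX peak. The next were chr19:46654948-46655314 (117.46), 219 bp from a TKO ATRX peak, and chr7:17200808-17201204 (50.8), 281 bp from a WT ATRX peak. With every peak within 1 kb of another factor's peak left out as well, 526 members remained.

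Scores of the members were spread widely. They ran from 50.02 to 1007.39, with a median of 73.08 (exact 95% interval of the median over peaks 68.83 to 77.08). Besides the 248 under 70, 102 members scored from 70 to under 100, 93 from 100 to under 200, 63 from 200 to under 500, and 25 scored 500 or more. The peaks left out had a median of 64.62, whose interval of 57.63 to 86.92 spans that of the members, and a highest score of 209.44. Among the 89 strongest peaks of the WT DAXX list, those at 200 or more, 88 were members and 1 was not. The share left out was 8.49% under 70 (23 of 271 peaks, exact 95% interval 5.46 to 12.5), 6.42% from 70 to under 100 (7 of 109) and 7.92% from 100 to under 200 (8 of 101). It was 1.56% from 200 to under 500 (1 of 64, up to 8.40) and 0 of 25 at 500 or more (exact upper limit 13.7%). The share was thus similar in the 3 lower bands, and the intervals of the 2 upper bands overlap theirs. These are counts within 1 list, given as a description, and intervals here and below cover counting error over peaks only.

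**Figure D1:**
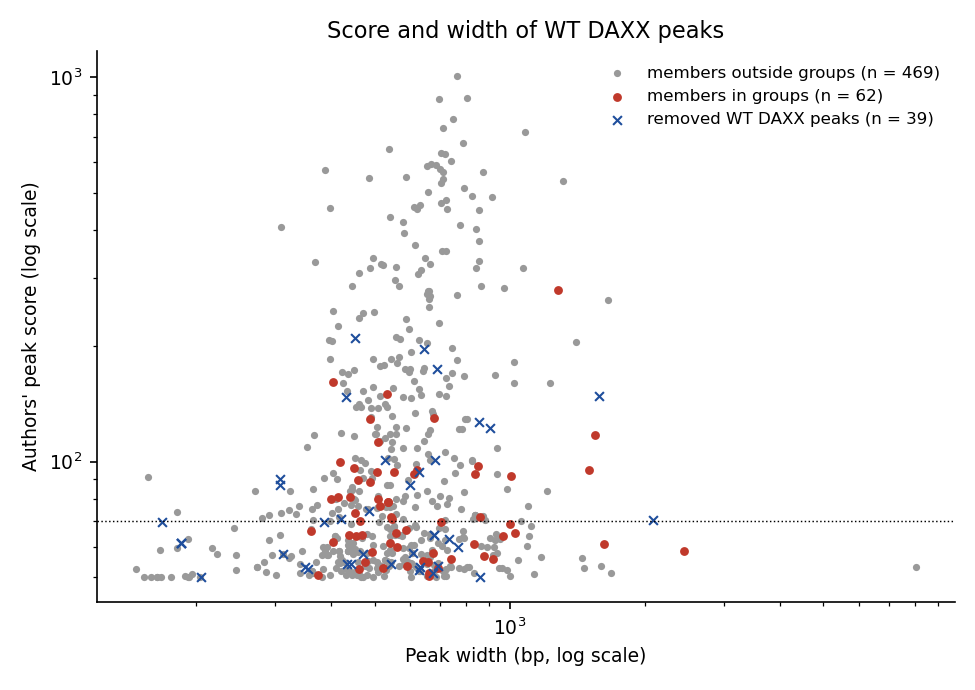
Width (bp, log scale) against the authors' score (log scale) for each WT DAXX peak, with 469 members outside groups (grey), 62 members in groups of 4 or more (red) and 39 peaks left out because they overlap another factor list (crosses). The dotted line is a score of 70, near the lowest score of the other lists, and 248 members lie below it; 1 member in a group scored above 200.

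Members were broad. Their median width was 554 bp (interval 538 to 579), with quartiles at 450 and 704 bp. Peaks found in only 1 of the other lists had medians of 328 bp in WT ATRX (n = 660), 344 bp in TKO ATRX (n = 1530) and 330 bp in TKO DAXX (n = 1229). The 39 WT DAXX peaks left out had a median of 544 bp, so peaks of this list were broad whether or not they were members. The median width was 527 bp under a score of 70, 517 bp from 70 to under 100 and 560 bp from 100 to under 200, with no steady order. It was 630 bp from 200 to under 500 and 709 bp at 500 or more. Across the 531 members the Spearman correlation of score and width was 0.24, a description over peaks that share 1 library.

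The widest members were mostly weak. The widest was 8032 bp long, chr8:19882276-19890307, with a score of 53.32. It was followed by chr13:23492475-23494914 (2440 bp, score 58.71) and chr4:145335559-145337242 (1684 bp, 51.33). The next, chr19:12085387-12087045 (1659 bp), scored 262.86 and was the one exception among the 5 widest. The fifth was chr11:68849922-68851541 (1620 bp, 61). In all, 31 members were wider than 1 kb.

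The highest-scoring members were in none of the groups described further on. For 8 of the 10 strongest the nearest other member was more than 100 kb away, with a median over the 10 of 682 kb. The exceptions were chr15:97199487-97200024, with a member 19.7 kb away, and chr9:21171495-21172573, with one 43.3 kb away. The 10 lay on 9 chromosomes, between 538 and 1079 bp wide with a median of 733 bp. The leading one, chr5:123097695-123098458, scored 1007.39 and was 764 bp wide. Its nearest peak of another factor list, in TKO DAXX, was 57638 bp away, and the nearest other member was 924 kb away. The second, chr6:108135188-108135991 (score 884.23, 804 bp), had no other factor peak within 372 kb. The third, chr4:126754169-126754864 (876.24, 696 bp), was 51.5 kb from a WT ATRX peak, and the fourth, chr2:25211458-25212206 (776.29, 749 bp), was 33.5 kb from a peak shared by WT ATRX and TKO DAXX.

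None of these 10 was within 10 kb of another factor's peak. Chromosome 9 held the fifth and sixth, chr9:44169353-44170061 (736.54, 709 bp) and chr9:21171495-21172573 (721.17, 1079 bp). The others were chr1:75138878-75139663 (673.52), chr15:97199487-97200024 (648.81), chr10:126500107-126500810 (636.01) and chr8:3500031-3500747 (629.72). Over the 10, the distance to the nearest peak of another factor list ran from 22.2 to 372 kb, with a median of 45.4 kb. The distance to the nearest IgG peak of either line ran from 91.7 kb to 18.3 Mb. The 88 members at 200 or more were spread over 18 chromosomes. Chromosome 11 held 10 of them and chromosome 5 held 9.

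Members were about as often within 10 kb of another factor list's peak as were peaks found in only 1 other list. Of the 531, 5 lay within 1 kb of a peak of the other 3 factor lists, 32 (6.03%, 4.16 to 8.40) within 10 kb and 251 within 100 kb. By the choice of members, these counts hold no overlaps. In the whole WT DAXX list, overlaps included, 12.5% of peaks lay within 10 kb. The 39 peaks left out, all of which overlap another list, make up the difference. Peaks found in only 1 other list gave shares near the 6.03% of members: 8.03% in WT ATRX, 5.75% in TKO ATRX and 8.54% in TKO DAXX. The median distance from a member was 356 kb to the nearest WT ATRX peak, 258 kb to TKO ATRX and 283 kb to TKO DAXX, in lists of 1440, 1650 and 2046 peaks. WT ATRX, the shortest of these lists, had the most members within 10 kb of its peaks, 18 against 12 for TKO ATRX and 13 for TKO DAXX. Some members count for both WT ATRX and TKO DAXX, at equal distances, so these counts are not independent.

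Of the 531 members, 12 (2.26%) were within 10 kb of a WT IgG peak and 15 (2.82%) within 10 kb of a TKO IgG peak. These counts were near those for the factor lists (18 for WT ATRX, 12 for TKO ATRX and 13 for TKO DAXX), although the IgG lists are shorter. They are not spread evenly over the members. In 1 stretch of chromosome 4, described further on, 8 of 11 members were within 3 kb of an IgG peak. Only 1 of 531 (0.188%, 0.00477 to 1.04) overlapped an IgG peak of either line, against 0.351% of the whole WT DAXX list. This member was chr4:145479033-145479355, with a score of 56.3, and the IgG peak was in the TKO list. The nearest WT IgG peak was a median of 4987 kb from a member and the nearest TKO IgG peak 1942 kb, in lists of 402 and 1057 peaks. The control used in each call is not given in the sources used here, so the low overlap does not show that the members are free of background.

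**Figure D2:**
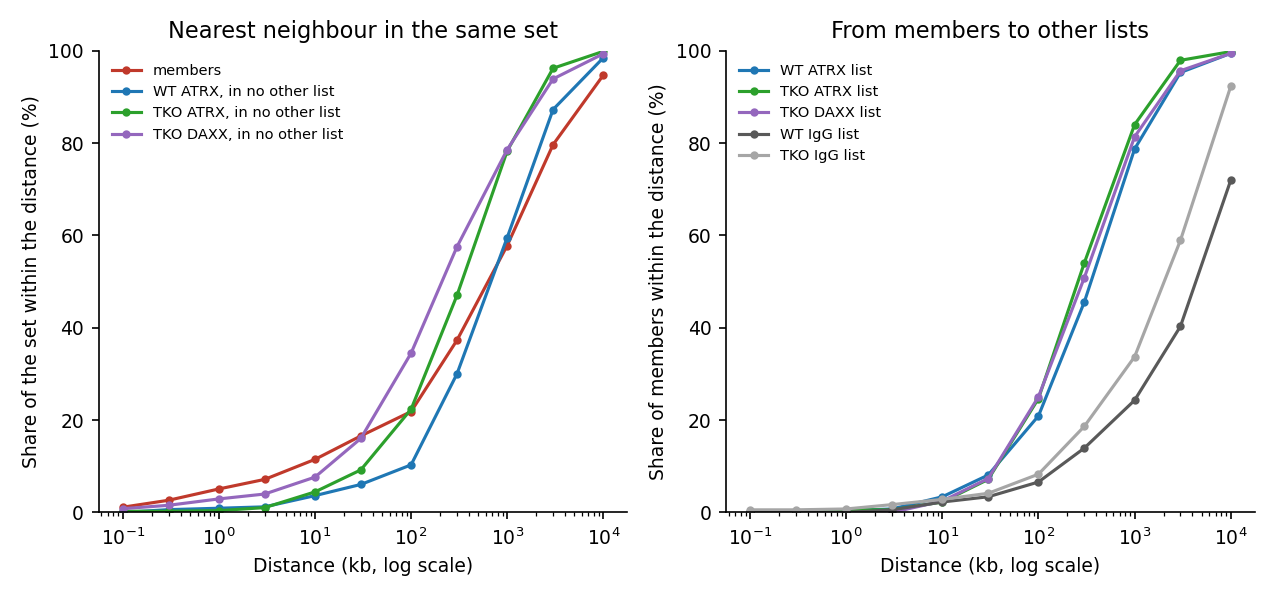
Share of peaks (%) within a distance (kb, log scale): left, to the nearest neighbour in the same set, for the members and for the peaks found in only 1 other list; right, from the members to the nearest peak of each other list. On the left 11.5% of the members have a neighbour within 10 kb and 21.8% within 100 kb; on the right the IgG curves lie farthest to the right beyond 30 kb.

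Members were also crowded in places, which was not particular to them. A neighbour of the same set within 100 kb was found for 21.8% of members. Among peaks found in only 1 other list the share was 10.3% in WT ATRX, 22.4% in TKO ATRX and 34.5% in TKO DAXX. A group is a run of at least 4 members with neighbours at most 100 kb apart. There were 8 such groups with 62 members (11.7%, 9.07 to 14.7). They lay on chromosomes 13 (3 groups), 11 (2 groups), 3, 6 and 14. Peaks found in only 1 other list gave 0 groups in WT ATRX (n = 660), 4 groups with 18 peaks in TKO ATRX (1.18%) and 25 groups with 139 peaks in TKO DAXX (11.3%). The sets differ in size and in their lowest score, so these shares are not on an equal footing. Among the 283 members at 70 or more, where the other lists begin, 21 were in 4 groups (7.42%, 4.65 to 11.1). At very short range 27 members had a neighbour within 1 kb, against 36 of 1229 TKO DAXX peaks, 6 of 1530 TKO ATRX peaks and 6 of 660 WT ATRX peaks. Members in groups had a median score of 69.89 and those outside of 73.98. The strong members were nearly all outside: 87 of the 88 at 200 or more.

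Crowding also showed in bins of 1 Mb. Of the bins that held a member, 299 held 1 and 59 held 2. The fullest was chromosome 13 at 23 Mb with 17 members, followed by chromosome 13 at 21 Mb with 13 and chromosome 3 at 96 Mb with 11. No other bin held more than 6.

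Chromosome 13 from 21 to 24 Mb held 36 members, 6.78% of the set. They scored between 50.8 and 161.15, with a median of 78.28. Of these, 22 scored 70 or more, 5 scored 100 or more and 0 reached 200, so the crowd consists of peaks of low to middle score. Widths ran from 334 to 2440 bp with a median of 508.5 bp. Together the 36 peaks covered 22.6 kb of a span of 2366 kb. The median gap between neighbours was 10.3 kb, and 23 of the 35 gaps were at most 20 kb.

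The members of this window fell into 4 runs separated by more than 100 kb. The first run had 8 members over 163 kb, chr13:21252479-21415008, with a median score of 85.78. After 387 kb came a close pair, chr13:21802332-21802665 (73.08) and chr13:21802689-21803184 (156.18), with 23 bp between them. The next run had 9 members over 147 kb, chr13:21974654-22121313, with a median of 73.52. Then 1241 kb passed without a member before the fullest run, 17 members over 257 kb, chr13:23362107-23618696, with a median of 70.91. Within that last run the median gap was 8.15 kb.

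The strongest member of the window was chr13:21974654-21975056, which opens the third run (score 161.15, 403 bp). The second was the downstream peak of the close pair (156.18, 496 bp). In the last run the strongest were chr13:23400534-23401067 (149.49, 534 bp), chr13:23524451-23525129 (130.06, 679 bp) and chr13:23618188-23618696 (112.45, 509 bp). The first member of the window was chr13:21252479-21252877 (79.91), and the peak at 112.45 was the last. All lay below the 629.72 of the weakest of the 10 strongest members.

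No peak of another factor list lay within 10 kb of a member of this window, beside 6.03% of all 531 members that had one. WT ATRX had 2 of its 1440 peaks in the window, TKO ATRX 2 of 1650 and TKO DAXX 1 of 2046. Whether these counts differ from the usual density of the lists was not tested. The TKO DAXX peak is identical to a WT ATRX peak, chr13:22139926-22140124. The nearest factor peak was in TKO ATRX, chr13:22037230-22037757 (score 77.25), 14029 bp from a member. WT IgG held 8 of its 402 peaks in the window, out of 18 on the whole chromosome. TKO IgG held 8 of its 1057, out of 70 on the chromosome. The nearest IgG peak was a TKO one at chr13:22127532-22128311, 6.22 kb from a member, and 4 peaks of each IgG list lay beyond the last member. Of the 36 members 0 overlapped an IgG peak, beside 1 of all 531 (0.188%), so this count does not set the window apart. The part of the IgG peaks in the crowding was not tested.

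**Figure D3:**
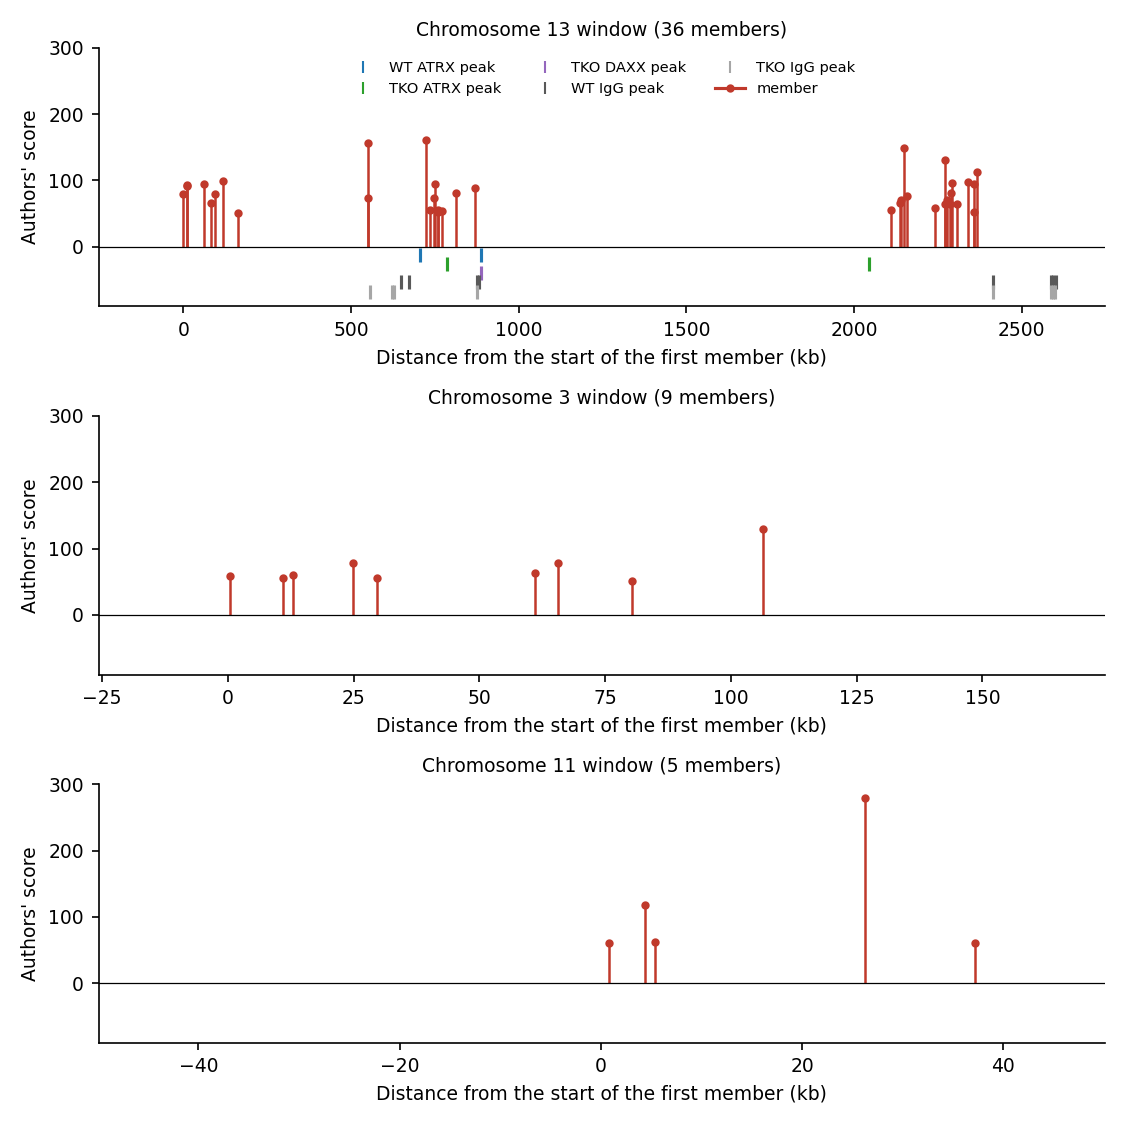
Members in the 3 windows, each as a line whose height is the authors' score, against distance (kb) from the start of the first member; ticks below the zero line mark peaks of the other 5 lists. In the chromosome 13 window 36 members stand in 4 runs around a stretch of 1241 kb without one. The chromosome 3 and chromosome 11 windows, only 0.2 and 0.1 Mb long, hold 9 and 5 members and no peak of any other list.

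Chromosome 3 from 96.1 to 96.3 Mb held 9 members and 0 peaks of any other list. Their scores ran from 50.52 to 128.97 with a median of 60.16, and only 3 reached 70. In order along the chromosome, the first 3 were chr3:96125688-96126362 (57.98), chr3:96136269-96137008 (55.85) and chr3:96138425-96138985 (60.16). Next came chr3:96150349-96150883 (78.76) and chr3:96154829-96155745 (55.78), then chr3:96186198-96187165 (63.94) and chr3:96191114-96191648 (78.76). The last were chr3:96205782-96206442 (50.52) and chr3:96231857-96232344 (128.97). A further 2 members just past the window belong to the same group, which then spans 179 kb with 11 members. The second of those 2 was chr3:96304638-96305095 (89.74).

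A mirrored pattern lies inside this window. The peaks at 96150349 and 96191114 have the same width, 535 bp, and the same score, 78.76. The first is followed by a wider peak (917 bp) after 3945 bp, and the second is preceded by a wider peak (968 bp) at 3948 bp. Equal score and width was seen for 20 of the 531 members (3.77%) and for 24.7% of WT ATRX, 18.7% of TKO ATRX and 20.2% of TKO DAXX peaks. Some of the 20 had their equal on the same chromosome, as on chromosomes 4, 5, 10 and 14, and some on another. Whether the same reads lie behind both peaks was not tested. Counting the pair once leaves 8 members in the window.

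Chromosome 11 from 68.8 to 68.9 Mb held 5 members over 37.6 kb and 0 peaks of any other list. The window is only 0.1 Mb long, and how often such a stretch holds no peak was not counted. The 5 members were wide, with a median of 1281 bp. The peak chr11:68849922-68851541 scored 61 and chr11:68853529-68855081 scored 117.54. The latter is followed after 6 bp by chr11:68855088-68855490 (61.87), the smallest gap between any 2 members. Farther along, chr11:68875536-68876816 scored 278.93, the highest score of any member in a group, and chr11:68886652-68887484 scored 61.17. The nearest peak of another factor was 210 kb from a member of this window and the nearest IgG peak 651 kb.

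For the histone and tRNA genes, coordinates of mm9 were not used here, and the RefSeq table at hand is of another build, GRCm38.p6. It was used for names and gene order alone, and no peak was placed on it. On chromosome 13 it names 56 replication-dependent histone genes and 105 tRNA genes, the most of either on any chromosome. They stand in 2 long runs, one from n-TEctc11 to n-TSgct5 with 24 histone and 59 tRNA genes, and one from n-TIaat15 to H2ac1 with 31 histone and 45 tRNA genes. Between the runs lie 87 other genes, 75 of them named Vmn (vomeronasal receptor genes and pseudogenes). In the first run histone and tRNA genes alternate in 5 blocks, and in the second all tRNA genes come before the histone genes.

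On chromosome 3 the table has 1 such run, with 10 histone genes from H2ac21 on and 25 tRNA genes after them, up to n-TEctc13. It also holds 3 genes of the spliceosomal U1 RNA. On chromosome 11 the largest run is of tRNA genes alone, 18 from n-TIaat5 to n-TKctt27. Members on these 3 chromosomes were grouped as described above, but whether a given member lies at a histone gene, a tRNA gene or neither was not analysed here. Chromosome 6 has 53 tRNA genes in the table and 26 members in the data, with 1 group of 4.

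The other 3 groups were small and weak. On chromosome 11, chr11:48631680-48670709 held 4 members with scores from 51.37 to 69.8, the highest at chr11:48666643-48667344. On chromosome 6, chr6:128710021-128753401 held 4 members with scores from 56.8 to 96.26, led by chr6:128748629-128749077. On chromosome 14, chr14:51683273-51710600 held 4 members with scores from 52.86 to 92.7, led by chr14:51708898-51709510. None of these 3 spans held a peak of any other list, but they are only 39.0, 43.4 and 27.3 kb long. How often spans of this length hold no peak was not counted. Some 132 kb before the chromosome 14 group stood a strong pair, chr14:51544270-51544973 (470.75) and chr14:51550405-51551109 (353.01), 5.43 kb apart.

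A looser crowd on chromosome 4, defined with a wider gap than the groups above, lay among many IgG peaks. With gaps of up to 500 kb allowed, 11 members lay over 1.56 Mb, chr4:145335559-146894004. Their median score was 56.3 and only 3 reached 70. The span also held 41 WT IgG and 139 TKO IgG peaks, 10 TKO ATRX peaks, 3 WT ATRX peaks and 1 TKO DAXX peak. At the same gap of 500 kb the members formed 9 groups. No other of these held more than 2 WT IgG or 3 TKO IgG peaks, though some held factor peaks. Of the 11 members 8 were within 3 kb of an IgG peak, among them the one that overlapped it. The part of that background in these 11 calls was not tested.

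Repeated values were frequent in this stretch. Peaks of 839 bp with a score of 72.64 stood at chr4:145356760-145357598, chr4:145600871-145601709 and chr4:146223143-146223981. A peak of 416 bp scoring 58.53 stood at chr4:145849869-145850284 and again 545356 bp farther on, at chr4:146395225-146395640. Each copy was 4936 bp from a WT ATRX peak and 66 bp from a TKO IgG peak. A peak of 274 bp scoring 53.33 likewise stood at chr4:145937526-145937799 and 545360 bp farther on. In all, 7 of the 11 members had such an equal partner here.

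Across whole chromosomes, members were most numerous on chromosomes 11 and 13, with 49 each (9.23%, 6.90 to 12.02). Chromosome 13 held a smaller share in each other list, 4.38% of WT ATRX, 5.15% of TKO ATRX, 3.67% of TKO DAXX, 4.48% of WT IgG and 6.62% of TKO IgG peaks. Outside the 3 windows chromosome 13 held 13 of 481 members, 2.70% (1.45 to 4.58). On chromosome 3 the share was 7.34% (5.27 to 9.90) for members, against 4.44% for WT ATRX, 4.79% for TKO ATRX and 3.62% for TKO DAXX, and it was 6.24% outside the windows. On chromosome 11 the members' share was close to that of WT ATRX (9.31%), above TKO ATRX (5.70%) and below TKO DAXX (19.6%).

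**Figure D4:**
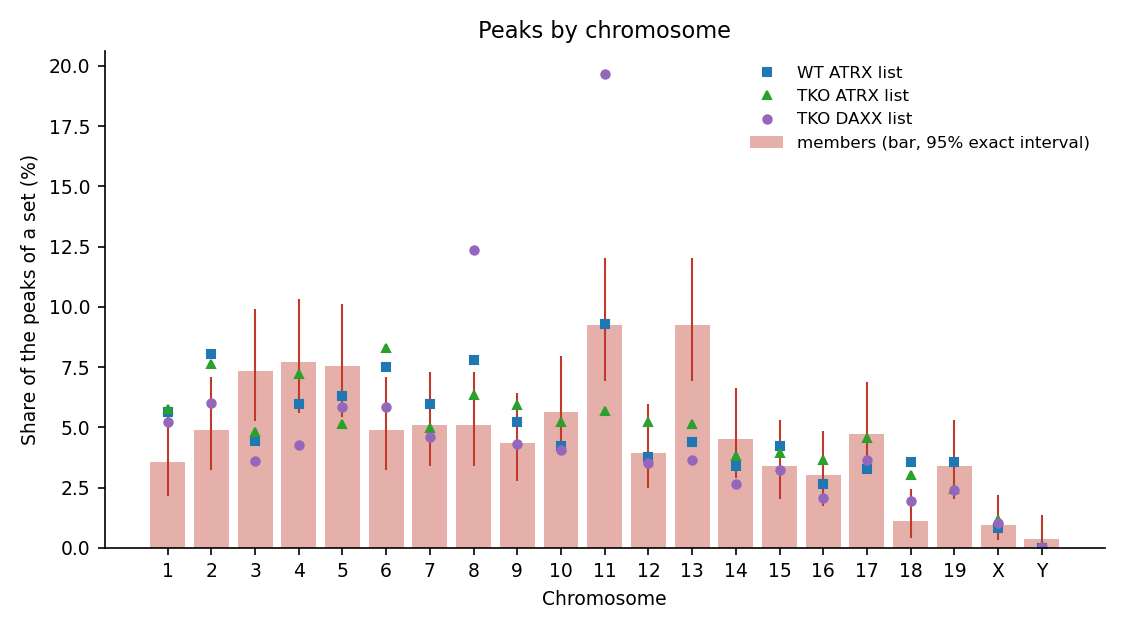
Share of the 531 members on each chromosome (bars, % of members, with exact 95% intervals over peaks) and share of the WT ATRX, TKO ATRX and TKO DAXX lists (points). Chromosomes 11 and 13 hold 9.23% of the members each; on chromosome 13 the points of the 3 other lists lie between 3.67% and 5.15%.

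At the start of chromosomes the members' share was near those of the other factor lists. At the far end it was near those of the ATRX lists and below that of TKO DAXX (interval 18.3 to 21.8). Of the 531, 35 lay in the first 10 Mb of a chromosome (6.59%, 4.63 to 9.05), beside 6.74% of WT ATRX, 7.21% of TKO ATRX and 7.58% of TKO DAXX peaks. In the last 10 Mb before the end of the outermost peak of any list lay 77 members (14.5%, 11.6 to 17.8), beside 15.2% of WT ATRX, 15.3% of TKO ATRX and 20.04% of TKO DAXX peaks. The IgG lists had more of their peaks in the first 10 Mb, 21.6% in WT and 23.9% in TKO cells. Mouse chromosomes have their centromere at one end, so the first stretch is the one next to the pericentromeric repeats.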

How the data were processed

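Peak lists of 6 ChIP-seq libraries, 1 per group by sample title, were used as deposited. Per the submitters' processing notes, Bowtie2, Picard and mm9 were used, with no role stated. Factor peaks carry MACS names and 1 score each, as deposited by the authors. The deposited IgG tables add tag counts and a fold enrichment ratio over background, per the file headers, and neither entered a result. The sources used here give no caller version, settings, control or library depth. BED starts were changed to count from 1. Overlap (1 bp or more), distances and groups were computed in Python 3.11.15 (numpy 2.4.6, pandas 2.3.3), tested on simulated data with planted overlaps and groups, and checked against bedtools 2.31.1, which gave another overlap count in 0 of 5 list pairs. Intervals are exact (Clopper-Pearson, or order statistics for medians; scipy 1.17.1). No test was run, because each group is 1 library. Gene order came from RefSeq's GRCm38.p6 table: histone or tRNA genes form a run when at most 20 other genes stand between neighbours and at least 10 belong to it. Regions were named by rule: the 10 strongest and 5 widest members, those of the 3 windows (of the chromosome 13 window, the 5 strongest, the first and the last), the leading member of other groups, those nearest the overlap limit and any overlapping IgG. The chromosome 4 stretch, the equal pairs, the close pairs and the strong chromosome 14 pair were chosen after their values were seen, and the members, windows and lists were chosen with earlier results of these data known.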

Additional observations from a re-analysis of the deposited data

How the results depend on the processing

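Over 12 results, 90 values were recomputed, and 76 stayed within a factor of 1.5 (counts) or within the exact interval of the median or share. Of the 90, 2 came from an alternative chosen after seeing the data, counting equal pairs once. It left 60 members in groups and 8 in the chromosome 3 window. The score cut mattered most. At 70 or more, 283 members were left, with a median score of 130.32, 15 within 10 kb of another factor's peak and 0 overlapping IgG. There were then 21 members in 4 groups, 22 in the chromosome 13 window, 3 in the chromosome 3 window and 2 in the chromosome 11 window. Counts of members can only fall when fewer peaks are taken. The share of members in groups fell from 11.7% to 7.42%. A thinner set reaches 4 neighbours within the gap less often, so this fall is no separate result. Of the members in groups 51.6% scored under 70, against 46.1% of those outside. With gaps of at most 20 kb, 31 members were in groups, and with gaps of at most 500 kb, 87 were. At 500 kb, peaks found in only 1 other list gave 50 of 660 in WT ATRX, 284 of 1530 in TKO ATRX and 481 of 1229 in TKO DAXX. Without the WT ATRX list in the rule, 53 members lay within 10 kb of another factor's peak, overlaps now included. The IgG overlap was 2 with an overlap counted from 50% of the peak or without TKO ATRX in the rule, and 0, by construction, with such peaks removed. Counts by distance to genes were not run, for want of an mm9 annotation here. No paired analysis was possible because each group holds 1 library. Depth is unknown, and a region missing from a list may have been missed there.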
